A study of Mus musculus with 16 samples.

Results

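The Hox cluster genes are the homeobox genes that lie side by side in the Hoxa, Hoxb, Hoxc and Hoxd clusters of the mouse genome, and they were taken as the rows whose gene name is Hox, a cluster letter and a paralog number. The table of 22559 genes held 38 of the 39 genes of this pattern in the GENCODE M21 annotation; Hoxd4 was not analysed here. Of the 38 members, 28 reached a normalized count of 10 or more in 4 or more libraries and were tested among 13797 genes. The other 10 were too low to test.

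The libraries came from skeletal cells of C57/B6 mice at postnatal day 6, from the femur, with 4 libraries in each of 4 sorted populations. All groups, MSC included, carried CTSK-cre and the mTmG reporter, in which Cre driven by the Ctsk promoter (cathepsin K, a collagen-cleaving protease of osteoclasts and of some periosteal cells) switches a cell, and later its daughters, from membrane-bound Tomato to membrane-bound GFP. PSC are labelled as periosteal stem cells, PP1 and PP2 as periosteal progenitor cells of type 1 and type 2, and MSC as endosteal mesenchymal stem cells that were negative for the Ctsk reporter. All cells came from the same litter on the same day without pooling. The labels do not say whether each library is a separate animal, and the p-values therefore measure the spread between these libraries. The labels do not give the sort gates.

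Hox proteins are transcription factors that give cells along the body axis and along the limb their position. Genes of a cluster are ordered so that low paralog numbers act toward the head and high numbers toward the tail and the tip of the limb, and genes with the same number in different clusters are paralogs with overlapping roles. In the mouse limb, paralog 10 is known for the upper segment that holds the femur. Paralog 11 is known for the middle segment and paralog 13 for the hand and foot. Adult skeletal cells are known to keep part of this pattern after development.

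Values are normalized counts, which are reads per gene divided by 1 size factor per library. Recovered read depth was 28.5 to 32.7 M per library in PSC, 22.3 to 32.7 M in PP1, 24.3 to 41.2 M in PP2 and 39.5 to 48.4 M in MSC. The share of tested genes without a read was 0.428 to 0.536% in MSC, 4.49 to 8.28% in PSC, 8.79 to 10.9% in PP1 and 7.84 to 16.4% in PP2. Hox members with at least 1 read numbered 34 to 36 per library in MSC, 21 to 30 in PSC, 19 to 22 in PP1 and 15 to 25 in PP2. Among the 6 members with a mean of 10 to 50 over all libraries, 45.8% of the values in PP1 and 45.8% in PP2 were at 0, against 41% and 45.7% for all 2009 genes in that range. In PSC the same share was 4.17% for the members and 29.7% for all genes of that range, and in MSC it was 0% and 2.1%. PP2 replicates 1 and 3 had the highest shares of tested genes at 0 (13.6 and 16.4%), and every count of called members was also computed without them. As these are bulk samples, fewer cells of a type and less RNA per cell cannot be told apart.

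The limb genes of a femur were present in every group. Pitx1, the hindlimb determinant, averaged 1236 normalized counts in PSC against 1778 in PP1, 1215 in PP2 and 1868 in MSC. Tbx4, the hindlimb T-box gene, averaged 128.3, 712.3, 617.1 and 582.8 in the same order. Tbx5, its forelimb counterpart, was also read in every library, with group means of 233.3, 330.2, 292 and 655.1. Of 11 limb region genes 5 differed over the 4 groups (limma's F-test, which 44.8% of all tested genes passed), and all 12 skeletal mesenchyme markers did. Pax7, which defines muscle precursors, Cd3e, which defines T cells, and Calcr, a receptor of mature osteoclasts, were at 0 in all 16 libraries. Other markers of these cells were read, with Acta1 of muscle at 2826 in PP2, and Cd68 of macrophages at 216.2 and Acp5 of osteoclasts at 3448 in PP1. Of 6 erythroid markers tested, 0 differed between PSC and PP1 or PP2, and 2 were higher in PSC than in MSC.

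The sequences just upstream of Hoxa10, Hoxa13 and Hoxa5 are shown as examples. Hoxa10 had the highest level, Hoxa13 was lower in PSC than in MSC, and Hoxa5 was higher in PSC than in PP2. All lie on the minus strand of chromosome 6 in RefSeq's annotation of GRCm38.p6 and end at the base before an annotated transcription start. None overlaps an annotated exon of GENCODE M21, because windows that touch one were not shown. Hoxd9, which was lower in PSC than in each other group, was left out by this rule. Hoxa10 has an outer start, with chr6:52240855-52241104 before it, and an inner start, with chr6:52234940-52235189 before it. The window of Hoxa13 is chr6:52260881-52261130 and that of Hoxa5 is chr6:52204588-52204837. Capitals mark a match to TATAAA (the TATA box) or to CCAAT (the CCAAT box), on either strand.
Hoxa10 outer start: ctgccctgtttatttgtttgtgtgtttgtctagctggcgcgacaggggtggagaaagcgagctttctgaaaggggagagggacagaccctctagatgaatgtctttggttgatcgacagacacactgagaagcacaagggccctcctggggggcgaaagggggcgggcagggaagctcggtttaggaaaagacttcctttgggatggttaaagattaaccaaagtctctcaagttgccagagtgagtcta
Hoxa10 inner start: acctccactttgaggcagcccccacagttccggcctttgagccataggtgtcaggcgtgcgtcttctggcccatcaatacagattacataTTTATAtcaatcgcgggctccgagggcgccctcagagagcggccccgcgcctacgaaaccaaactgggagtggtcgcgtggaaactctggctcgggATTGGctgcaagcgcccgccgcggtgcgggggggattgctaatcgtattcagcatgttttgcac
Hoxa13: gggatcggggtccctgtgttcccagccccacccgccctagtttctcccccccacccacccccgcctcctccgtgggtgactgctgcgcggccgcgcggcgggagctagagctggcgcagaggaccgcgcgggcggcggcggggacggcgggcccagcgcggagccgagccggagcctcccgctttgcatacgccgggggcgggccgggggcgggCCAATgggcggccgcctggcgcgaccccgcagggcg
Hoxa5: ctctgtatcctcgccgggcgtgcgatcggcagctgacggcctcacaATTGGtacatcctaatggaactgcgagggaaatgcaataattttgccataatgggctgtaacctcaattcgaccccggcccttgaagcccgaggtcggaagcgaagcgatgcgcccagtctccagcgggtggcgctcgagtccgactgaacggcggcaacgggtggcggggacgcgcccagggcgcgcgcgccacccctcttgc

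The window of the inner Hoxa10 start held TATAAA on the opposite strand, 160 bases before the start, and CCAAT on the opposite strand, 64 bases before it. The outer Hoxa10 window held neither. Hoxa13 held CCAAT 36 bases before its start, in a window with 80.0% G and C, and Hoxa5 held it 204 bases before its start on the opposite strand. RefSeq windows of 250 bases were available for 21 members (23 windows). CCAAT was in 13 of these 23 windows (56.5%) and in 33.8% of all 32817 windows. TATAAA was in 3 of 23 (13%) and in 12.4% of all windows. CCATAAA, a sequence bound by posterior Hox proteins, was in 0 of 23 and in 2.43% of all windows, and TGACAG, a sequence bound by the Meis cofactors, was in 2 of 23 (8.7%) and in 15.9%. The median G and C content was 59.2% over the member windows and 52.4% over all windows. Every motif was searched on both strands, and the matches in capitals do not overlap each other.

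The Hoxa cluster held the largest share of Hox normalized counts in all 4 populations. The 11 Hoxa members (chr6:52155590-52260880, GRCm38) held 63.4 ± 5.24% of all Hox normalized counts in PSC against 67.7 ± 4.72% in PP1, 64.3 ± 5.17% in PP2 and 58.6 ± 0.998% in MSC (mean ± SD, n = 4 each). The 8 Hoxd members (chr2:74668310-74765142) held 18.9, 17.9, 23.8 and 24.2% in the same order. The 9 Hoxc members (chr15:102921103-103036852) held 17.5, 14.2, 11.7 and 15.9%. The 10 Hoxb members (chr11:96194316-96368256) held 0.268, 0.163, 0.266 and 1.33%. Summed over all members, the level was 4791 to 5773 normalized counts in PSC, 6628 to 7953 in PP1, 5698 to 6803 in PP2 and 5893 to 7166 in MSC. The 4 PSC libraries lay below all 4 PP1 libraries and all 4 MSC libraries in this sum, which was described without a test.

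**Figure D1:**
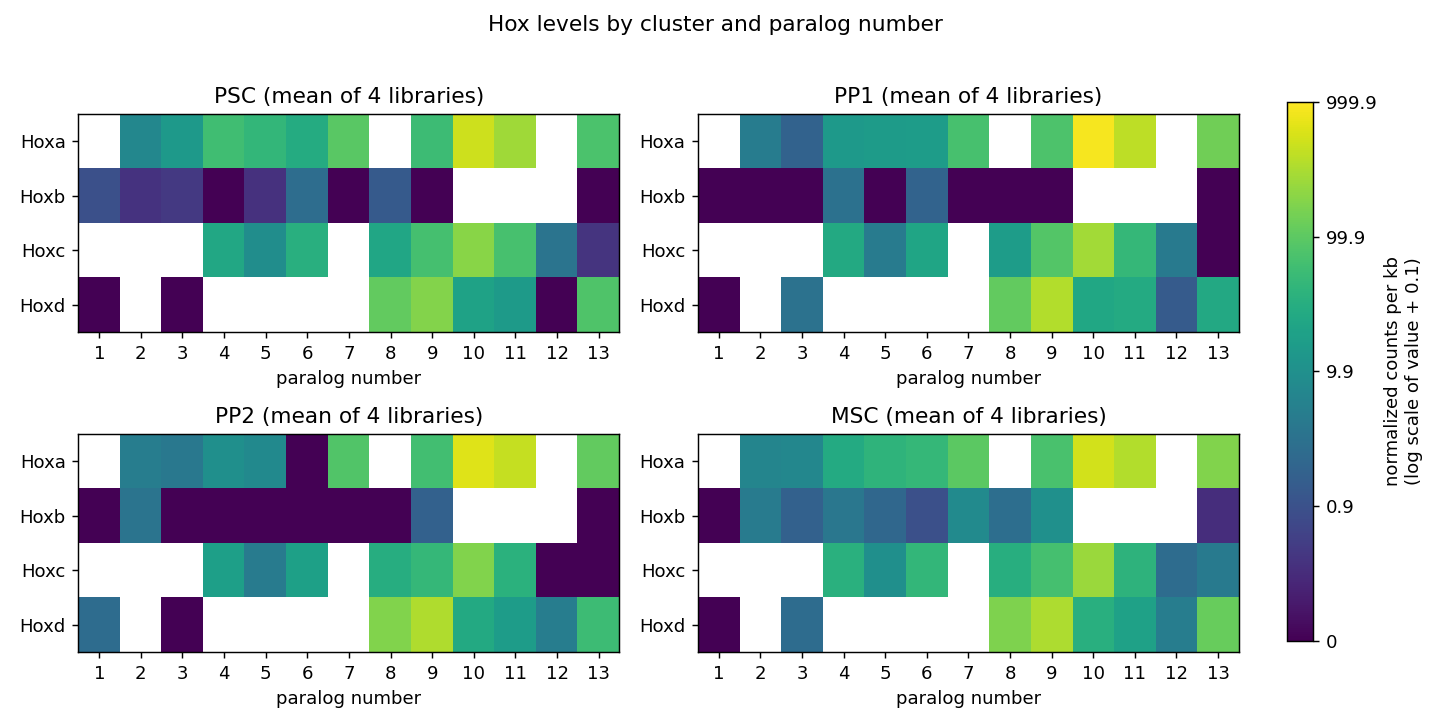
Mean level of each Hox gene in normalized counts per kilobase of exon (colour, log scale of the value + 0.1), by cluster (rows) and paralog number (columns), with a panel of 4 libraries for each population. White cells hold no gene that is shown; Hoxa10 is the brightest cell in all 4 panels, and the Hoxb row is dark, least so in MSC.

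Per kilobase of exon, Hoxa10 was the highest Hox gene in all 16 libraries, and it was also the highest by coding length and by the longest transcript. Its level was 1.17 to 2.15 times that of the next member, which was Hoxa11 in 11 libraries, Hoxd9 in 4 and Hoxc10 in 1. Averaged over the 16 libraries, the order of levels was Hoxa10 (635.3 normalized counts per kilobase), Hoxa11 (365.3), Hoxd9 (297.3), Hoxc10 (225.5), Hoxd8 (140.9) and Hoxa13 (123.9). Apart from Hoxa10 these neighbours changed places between libraries, Hoxa11 ranking 2 to 4, Hoxd9 ranking 2 to 6 and Hoxc10 ranking 2 to 6. Hoxc10 was the highest Hoxc gene in all 16 libraries, Hoxd9 the highest Hoxd gene in 15 (Hoxd8 in the other), and Hoxb9 had the highest mean of the Hoxb genes, 2.938 per kilobase.

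By paralog number, the 16 members with numbers 9 to 13 held 76.7 ± 3.43% of the per-kilobase Hox level in PSC against 88.1 ± 2.43% in PP1, 84.3 ± 2.73% in PP2 and 78.5 ± 1.54% in MSC (mean ± SD, n = 4 each). The ranges were 72.6 to 81% in PSC, 85.6 to 90.8% in PP1, 81.3 to 87.6% in PP2 and 76.4 to 80% in MSC. The shares of PP1 and PP2 thus lay above those of PSC and MSC in every library. The 14 members with numbers 4 to 8 held most of the rest, at 21.8% in PSC against 11.3% in PP1, 15% in PP2 and 20.5% in MSC. The 8 members with numbers 1 to 3 held 1.52, 0.65, 0.636 and 0.999%. Paralog 10 alone held 35.8% in PSC against 44.8% in PP1, 36.2% in PP2 and 32% in MSC. These shares and levels were chosen with the members and carry no test.

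**Figure D2:**
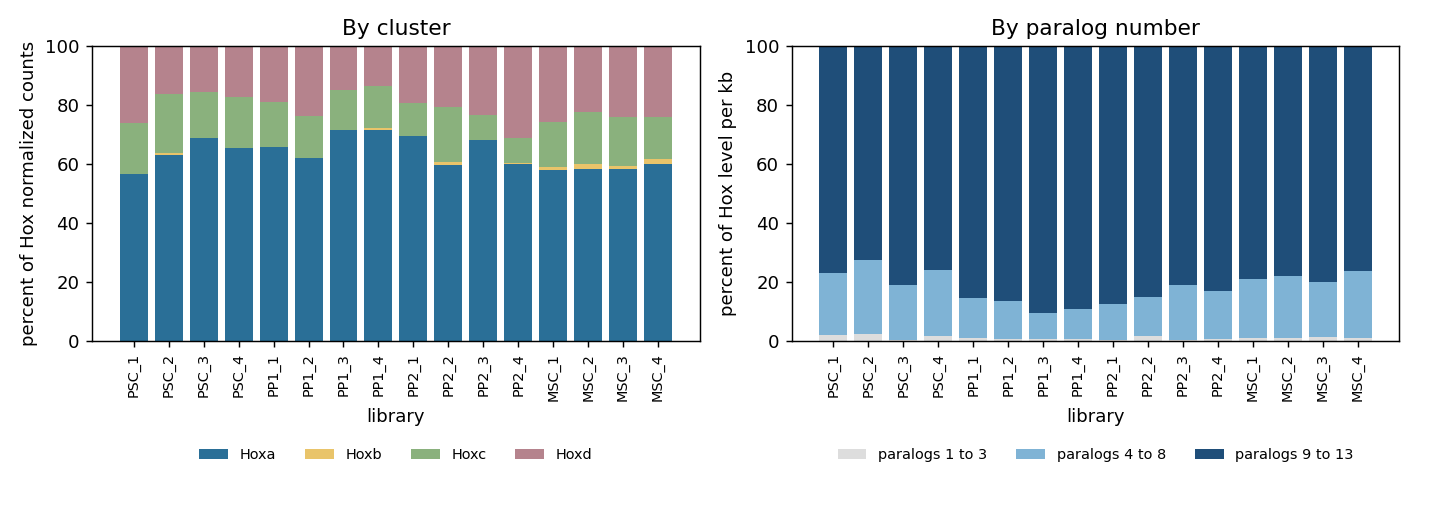
Stacked bars for each of the 16 libraries: at left the percent of all Hox normalized counts in each cluster, at right the percent of the per-kilobase Hox level in paralogs 1 to 3, 4 to 8 and 9 to 13. Hoxa is the largest block in every library, and paralogs 9 to 13 hold 85.6 to 90.8% in PP1 against 72.6 to 81% in PSC.

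The Hox members that differed between populations were mostly Hoxa genes, Hoxd9 and a few low genes read most regularly in MSC. Between PSC and PP1, 4 of 28 tested members passed an adjusted p of 0.05 (limma, adjusted over all genes tested; 14.3%), against 31.2% of all tested genes. Hoxa3 was higher in PSC (1 member, 16.1% of all genes), and Hoxa10, Hoxa13 and Hoxd9 were lower (15.1% of all genes); the count was 2 without PP1 replicate 2 or 3. Between PSC and PP2, 6 of 28 passed (21.4%, against 32.8% of all genes): Hoxa4, Hoxa5 and Hoxa6 were higher in PSC (17.6% of all genes), and Hoxa10, Hoxa11 and Hoxd9 were lower (15.2%). This count was 3 without PSC replicate 2, PSC replicate 4 or PP2 replicate 3. Between PSC and MSC, 7 of 28 passed, all lower in PSC (25%, against 26.3% of all genes, 14.2% lower and 12.1% higher in PSC): Hoxa13, Hoxb2, Hoxb7, Hoxb9, Hoxd3, Hoxd9 and Hoxd12. Of these 7, Hoxb2, Hoxb7, Hoxb9, Hoxd3 and Hoxd12 reached the minimum only because MSC libraries did. The minimum itself thus favoured a difference from MSC, and their number is no support, here and in the other counts against MSC. The share called was near that of all genes. The count was 3 without PSC replicate 4, MSC replicate 1 or MSC replicate 2, 1 without MSC replicate 3 and 2 without MSC replicate 4.

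Between PP1 and PP2 no member passed with limma, against 0.834% of all genes (0.478% higher and 0.355% lower in PP1); 4 members had an unadjusted p under 0.05, edgeR called 0, and DESeq2 called 2, Hoxa6 and Hoxa10. Without PSC replicate 3 limma called 1. Between PP1 and MSC, 4 passed (14.3%, against 21.4% of all genes): Hoxa10 was higher in PP1 (8.88% of all genes), and Hoxb2, Hoxb7 and Hoxb9, tested only through MSC, were lower (12.6%); the count was 7 without PP1 replicate 1. Between PP2 and MSC, 5 passed, all lower in PP2 (17.9%, against 24% of all genes, 14.7% lower and 9.28% higher in PP2): Hoxa5, Hoxa6, Hoxb7, Hoxb9 and Hoxd3, the last 3 tested only through MSC. This count was 3 without any 1 of the 4 MSC libraries, and 3 without PP2 replicates 1 and 3. The median log2 difference over the 28 members was 0.02 for PSC minus PP1, 0.31 for PSC minus PP2 and -0.61 for PSC minus MSC, beside 0.04, 0.08 and -0.18 over all tested genes. It was 0.06 for PP1 minus PP2, -1.38 for PP1 minus MSC and -1.54 for PP2 minus MSC, beside 0.02, -0.18 and -0.195. The 5 members tested only through MSC are among the 28. Over the 4 groups together 10 of 28 members passed the F-test, against 44.8% of all genes (5 without MSC replicate 1 or 3, and 6 without MSC replicate 2 or 4). These 10 include Hoxb2, Hoxb7, Hoxb9 and Hoxd3, whose passing the minimum itself favoured. Libraries of the compared groups did not overlap for 4 members between PSC and PP1 (28.9% of all genes), 3 between PSC and PP2 (28.5%), 8 between PSC and MSC (38.7%) and 2 between PP1 and PP2 (4.74%). Against MSC they did not overlap for 7 members in PP1 (30.1%) and 8 in PP2 (30.5%). The comparisons of PSC share the same 4 PSC libraries.

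**Figure D3:**
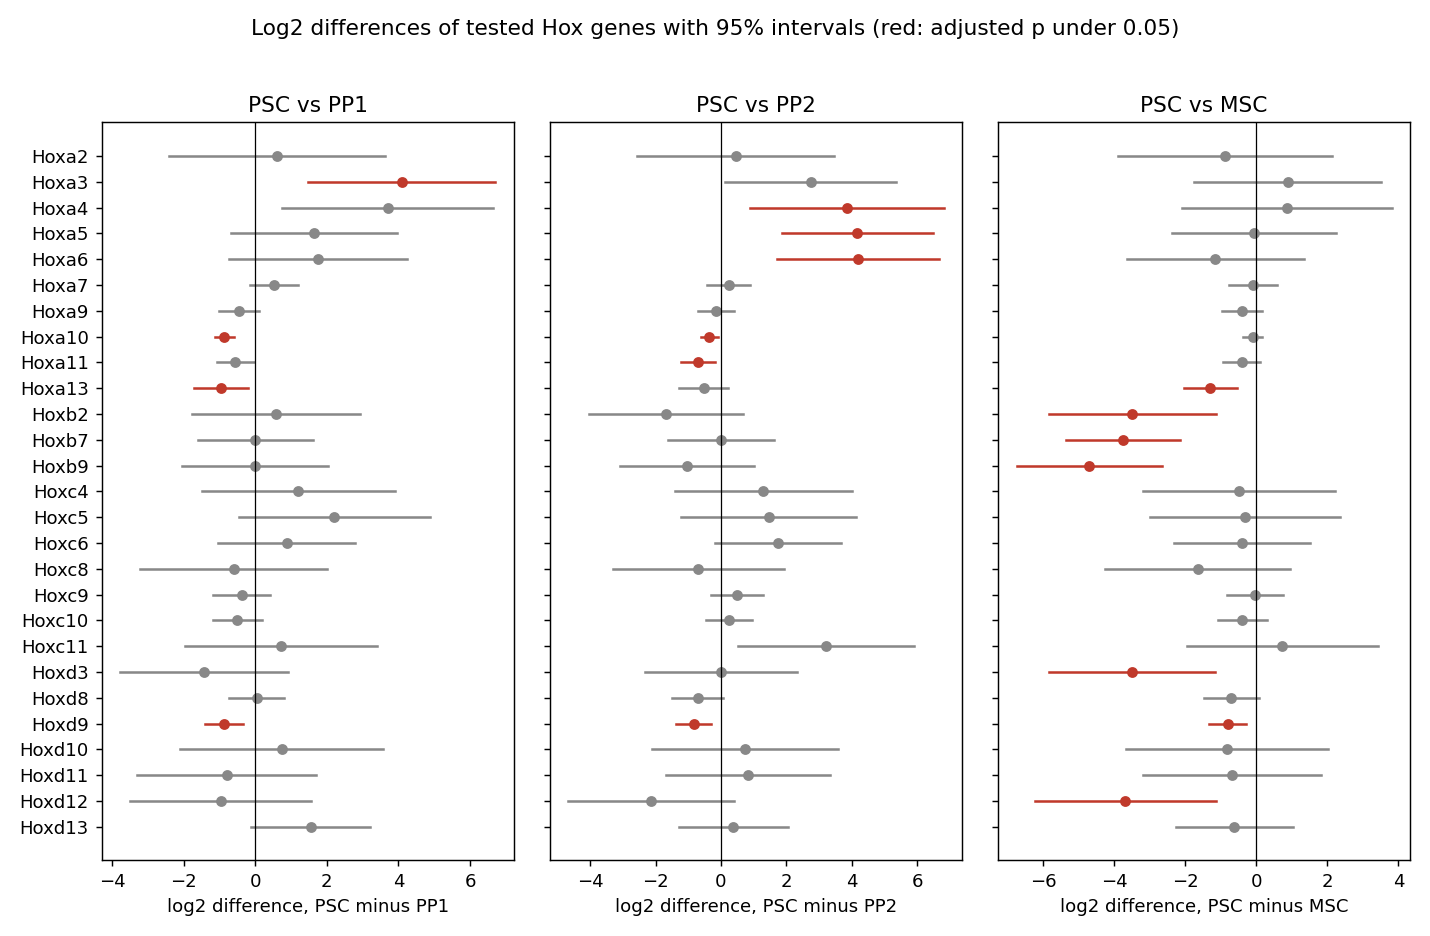
Log2 difference of PSC minus PP1, PP2 and MSC for the tested members shown, on the log2(normalized count + 1) scale, with 95% confidence intervals (red: adjusted p under 0.05). Hoxa10, Hoxa11, Hoxa13 and Hoxd9 have short intervals left of 0 where red, while low members such as Hoxa3 to Hoxa6 have intervals several log2 units wide.

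Hoxa10 (chr6:52231197-52240854, minus strand), a paralog 10 gene that patterns the upper limb segment, was higher in PP1 than in PSC and MSC. Its normalized counts were 2579, 2779, 3436 and 2895 in PP1, and 1363, 1506, 2105 and 1510 in PSC. They were 1907, 1930, 2226 and 2139 in PP2, and 1796, 1625, 1740 and 1703 in MSC. All 4 PP1 libraries lay above every other library. The log2 difference of PSC minus PP1 was -0.86 ± 0.13 (SE; adjusted p = 3.37e-05), a level 1.82 times as high in PP1. That of PP1 minus MSC was 0.76 ± 0.13 (adjusted p = 0.000285). Both held in all 29 alternatives. PSC was also lower than PP2, by a log2 difference of -0.36 ± 0.13 (adjusted p = 0.0394), with PSC replicate 3 inside the PP2 range. This call was lost in 12 of 29 alternatives, among them edgeR, DESeq2, scaling by TMM and the fit of only the 8 libraries compared. It was also lost without PP2 replicates 1 and 3 together, and without PSC replicate 1, 2 or 4, PP2 replicate 3 or 4, or MSC replicate 4. PP1 minus PP2 was 0.51 ± 0.13 (adjusted p = 0.0691), with no overlap between their libraries. This difference passed in 3 of 29 alternatives: with the replicate block, with DESeq2 and without PSC replicate 3.

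Markers of other cells stood beside the PP1 level. Of 5 osteoclast markers tested, 4 were lower in PSC than in PP1, and the summed level of the 7 listed ones was 2768 to 15660 in PP1, 608.6 to 1547 in PSC, 590.2 to 2534 in PP2 and 6087 to 7663 in MSC. Most of the MSC sum was Mmp9, with a mean of 6763, and 4 of the 5 tested were higher and 0 lower in PP1 than in MSC. The 7 blood cell markers summed to 527 to 987.7 in PP1, 39.06 to 227.3 in PSC, 2.651 to 243.9 in PP2 and 70.2 to 137.5 in MSC, and 2 of 4 tested were lower in PSC than in PP1. Their part in the Hoxa10 difference was not tested.

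Hoxd9 (chr2:74697727-74700208, plus strand), a paralog 9 gene, was lower in PSC than in each of the other groups. It had 375, 424.4, 403.3 and 356.5 normalized counts in PSC and 783.8, 1143, 581.7 and 486.1 in PP1. In PP2 it had 449.5, 700.5, 873.5 and 852.4, and in MSC 588.7, 645.1, 736.2 and 762.3. Every PSC library lay below every library of the other 3 groups. The log2 difference was -0.87 ± 0.25 for PSC minus PP1 (adjusted p = 0.0119), -0.84 ± 0.25 for PSC minus PP2 (adjusted p = 0.0139) and -0.80 ± 0.25 for PSC minus MSC (adjusted p = 0.022). The first was lost without PP1 replicate 2 (adjusted p = 0.0507), the second held in all 29 alternatives, and the third was lost in 3, without PSC replicate 4, MSC replicate 3 or MSC replicate 4. Between the other groups the log2 difference was 0.03 for PP1 minus PP2 (95% interval -0.49 to 0.55), 0.06 for PP1 minus MSC and 0.03 for PP2 minus MSC, each with an SE of 0.25.

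Hoxa13 (chr6:52257694-52260880, minus strand), the gene of the hand and foot in this cluster, was lower in PSC than in MSC. Its normalized counts were 206.5, 93.53, 243.4 and 188.1 in PSC and 501.2, 300.3, 574.4 and 379.3 in MSC. In PP1 they were 344.1, 383.6, 350 and 270.3, and in PP2 417.6, 264, 149.8 and 235.7. PSC lay below MSC and below PP1 in every library and overlapped PP2. The log2 difference of PSC minus MSC was -1.30 ± 0.36 (adjusted p = 0.0109) and was lost without MSC replicate 3 (adjusted p = 0.05). That of PSC minus PP1 was -0.95 ± 0.36 (adjusted p = 0.049) and was lost in 17 of 29 alternatives, 12 of them with 1 library left out (each except PSC replicate 3, PP1 replicate 4 and PP2 replicates 1 and 3).

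Hoxa11, a paralog 11 gene of the middle limb segment, is named after its values were seen. It had 534.5, 543.1, 890 and 497.1 normalized counts in PSC and 1140, 782.3, 1308 and 781.4 in PP2. Its range was 577.9 to 1234 in PP1 and 671.8 to 966.5 in MSC. PSC replicate 3 lay inside the PP2 range and the other 3 PSC libraries below it. The log2 difference of PSC minus PP2 was -0.71 ± 0.25 (adjusted p = 0.0374), and it was lost in 7 of 29 alternatives, among them without PP2 replicates 1 and 3 together and without PSC replicate 1, 2 or 4 or PP2 replicate 1 or 3. The antisense transcript Hoxa11os shares 800 bases (35.0%) of the exons of Hoxa11, and with no strand setting given, reads of the pair cannot be told apart.

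Hoxc10, the leading Hoxc gene and a paralog of Hoxa10, had 339.3, 466.6, 285.6 and 380.9 normalized counts in PSC and 278.6, 637.3, 643.8 and 605.1 in PP1. It had 305.5, 565.9, 169.7 and 295.8 in PP2 and 449.7, 453.6, 565.9 and 443.3 in MSC. The groups overlapped, and no pair passed the test (adjusted p = 0.186 over the 4 groups). Hoxd13, the Hoxd gene of the hand and foot, spread widely within groups, from 98.52 to 556.1 in MSC, 52.3 to 446.4 in PSC, 47.72 to 224.2 in PP2 and 11.44 to 92.07 in PP1, and did not pass (adjusted p = 0.133 over the 4 groups; named after its values were seen). Its PP1 and MSC libraries did not overlap, with a log2 difference of PP1 minus MSC of -2.17 (adjusted p = 0.0578), and this difference passed with edgeR, DESeq2 or a pseudocount of 8. The other members with a read in all 16 libraries were Hoxa7, Hoxa9, Hoxc6, Hoxc9 and Hoxd8, with means over all libraries of 71.2 to 386.6 normalized counts, and none of them passed between any pair.

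**Figure D4:**
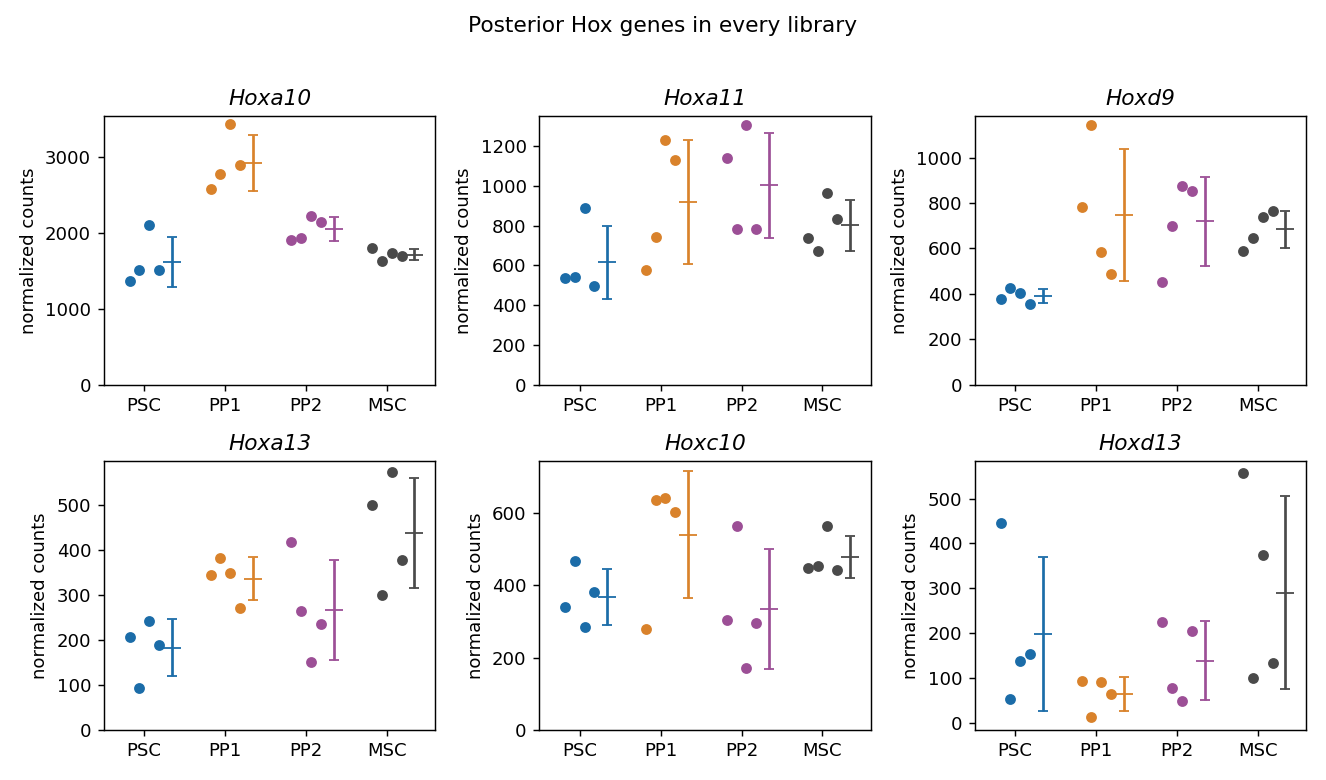
Normalized counts of Hoxa10, Hoxa11, Hoxd9, Hoxa13, Hoxc10 and Hoxd13 in every library, with the mean and SD of the 4 libraries of each population beside the points. The PP1 points of Hoxa10 (2579 to 3436) lie above all others, and the PSC points of Hoxd9 (356.5 to 424.4) lie below all others.

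At the head end of the Hoxa cluster, Hoxa3, Hoxa4, Hoxa5 and Hoxa6 had their lowest means in PP1 or PP2. Hoxa5 (chr6:52201754-52204587, minus strand), known in mouse for patterning the neck and chest skeleton, had 68.07, 154.9, 34.19 and 72.01 normalized counts in PSC and 66.08, 69.78, 71.05 and 96.3 in MSC. It had 32.71, 5.198, 54.23 and 23.81 in PP1, and 0, 3.718, 55.67 and 0 in PP2. PP2 replicate 3 lay inside the PSC range, and every PP2 library lay below MSC. The log2 difference was 4.16 ± 1.11 for PSC minus PP2 (adjusted p = 0.00665) and -4.23 ± 1.11 for PP2 minus MSC (adjusted p = 0.00871). Neither passed with edgeR or DESeq2.

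Hoxa6, its neighbour, had no read in any PP2 library. It had 3.348, 32.18, 53.3 and 12.78 normalized counts in PSC, 0, 32.23, 24.65 and 0 in PP1, and 57.5, 28.05, 41.09 and 36.02 in MSC. Set against a floor of 3 reads per PP2 library, it was at least 8.46-fold higher in PSC (adjusted p = 0.0104) and at least 13.5-fold higher in MSC (adjusted p = 0.00276), where floors cover counting error only. The call against PSC held in all 26 alternatives that tested this gene, and that against MSC in all 27 that did. The fit of only the PSC and PP2 libraries did not test it, since 3 PSC and 0 PP2 libraries reached the minimum. Its test between PSC and PP2 thus relied on libraries of PP1 or MSC to reach the minimum. PSC replicate 1 held 3 reads, at the floor.

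Hoxa3, a gene known in mouse for the throat glands and neck, had 71.42, 118.7, 33.19 and 131.2 normalized counts in PSC and 21.81, 0, 0 and 19.61 in PP1. It had 39.57, 9.668, 43.74 and 0 in PP2 and 47.2, 31.47, 47.08 and 44.11 in MSC. PSC and PP1 did not overlap. The log2 difference of PSC minus PP1 was 4.09 ± 1.25 (adjusted p = 0.0175), and it was lost with edgeR and without PP1 replicate 2 or PP1 replicate 3 (up to adjusted p = 0.0611 without a library). The exons of Hoxa3 share 27.1% of their bases with other annotated transcripts, so its reads are uncertain. Hoxa4, named after its values were seen, ranged from 43.24 to 192.8 in PSC and from 0 to 33.46 in PP2. Its log2 difference of 3.85 ± 1.41 (adjusted p = 0.0431) was lost in 18 of 28 alternatives, among them edgeR and DESeq2. It was also lost without any 1 PSC or MSC library and without PP2 replicate 1 or 3. Hoxa2, which patterns the hindbrain, reached at most 36.83 normalized counts in any library and did not pass.

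The endothelial markers Cdh5 and Pecam1 averaged 8.494 and 4.805 normalized counts in PP2, against 87.23 and 120.1 in PSC, while Tek and Kdr averaged 64.16 and 15.94 in PP2 against 11.8 and 7.422 in PSC. The 6 endothelial markers summed to 65.44 to 247.3 in PP2, 58.03 to 764.2 in PSC, 135.1 to 1116 in PP1 and 825.6 to 1385 in MSC, with 2 of 6 higher in PSC than in PP2 and 4 of 6 lower in PP2 than in MSC. The 7 muscle markers summed to 2830 to 5845 in PP2, 766.1 to 2212 in PP1, 374.1 to 626.6 in PSC and 197.8 to 307.9 in MSC, with 3 of 4 tested lower in PSC than in PP2 and 1 higher. Of 6 Schwann and neural crest markers, 5 were higher in PSC than in PP2 and 6 higher in MSC than in PP2. Their part in the Hoxa3 to Hoxa6 levels was not tested.

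Reads of the Hoxb cluster were most regular in MSC. There 7 of its 10 members had reads in all 4 libraries, against 0 in PSC, PP1 and PP2. No read was found in any library for 4 Hoxb members in PSC against 8 in PP1, 8 in PP2 and 1 in MSC (Hoxb1). The Hoxb sum was 72.94 to 105.9 normalized counts in MSC, 0 to 46.26 in PSC, 0 to 44.82 in PP1 and 0 to 48.34 in PP2. MSC libraries also held 39.5 to 48.4 M reads and had the fewest genes at 0, and the part of this in the Hoxb counts was not tested. Hoxb2, Hoxb7, Hoxb9, Hoxd3 and Hoxd12 were tested only because their MSC libraries reached the minimum, so their levels are given as a description, with no p.

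Hoxb9 (chr11:96271457-96276595, plus strand), a paralog of Hoxd9, had 15.45, 26, 25.68 and 36.76 normalized counts in MSC (18 to 50 reads). It had 0, 17.1, 0 and 0 in PP2 and no read in PSC or PP1. Against a floor of 3 reads per library it was at least 8.07-fold higher in MSC than in PSC and at least 7.47-fold higher than in PP1. This floor covers counting error only, so the folds are not bounds where libraries spread more than that. PP2 replicate 2 lay inside the MSC range.

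Hoxb7, a gene of the middle of the cluster, had 12.01, 10.26, 10.27 and 18.38 normalized counts in MSC (12 to 25 reads) and no read in the other 12 libraries. Against the same floor it was at least 3.96-fold, 3.66-fold and 4.24-fold higher in MSC than in PSC, PP1 and PP2. Spread between libraries beyond counting error is not covered by these folds. Hoxb2, a hindbrain gene, had 13.73, 17.1, 13.7 and 19.11 in MSC and 0, 4.023, 0 and 0 in PSC. It had no read in PP1, and 0, 31.23, 0 and 15.88 in PP2. MSC lay above PSC and PP1 and overlapped PP2. The antisense gene Hoxb3os shares 27.3% of the exon bases of Hoxb2.

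Hoxd3 had 11.16, 8.21, 10.27 and 11.76 normalized counts in MSC, no read in PSC or PP2, and 0, 0, 0 and 51.83 in PP1. Against the same floor, which covers counting error only, it was at least 3.22-fold higher in MSC than in PSC and at least 3.45-fold higher than in PP2. Its mean in PP1 (12.96) was above that in MSC (10.35) through PP1 replicate 4. Hoxd3 shares exon bases with Hoxd4 and with Gm28230 on the same strand (388 and 2225 bases), so its reads are uncertain. Hoxd12, named after its values were seen, had 6.865, 10.26, 14.55 and 18.38 in MSC and none in PSC. Against that floor, again for counting error only, it was at least 3.89-fold lower in PSC. It had 13.33, 0, 0 and 0 in PP1 and 0, 7.437, 0 and 42.62 in PP2, and its means in PP2 and MSC were both 12.51.

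Markers of Schwann cells and neural crest stood beside the MSC levels. All 6 such markers were tested, and 6 of 6 were higher in MSC than in PP1 and than in PP2, and 5 of 6 higher than in PSC, with S100b lower. Their sum was 16570 to 25780 normalized counts in MSC, 7219 to 9096 in PSC, 2294 to 5239 in PP1 and 1832 to 3040 in PP2. On average most of the sum outside MSC was S100b, with means of 6918 in PSC, 2472 in PP1 and 2286 in PP2, against 4231 in MSC. Foxd3, a neural crest factor, was at 0 in PP1 and PP2 and averaged 801.5 in MSC and 9.202 in PSC. Sox10, a Schwann cell factor, averaged 1803 in MSC against 72.43 in PSC, 2.925 in PP2 and 13.22 in PP1. Their part in the Hoxb levels was not tested.

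**Figure D5:**
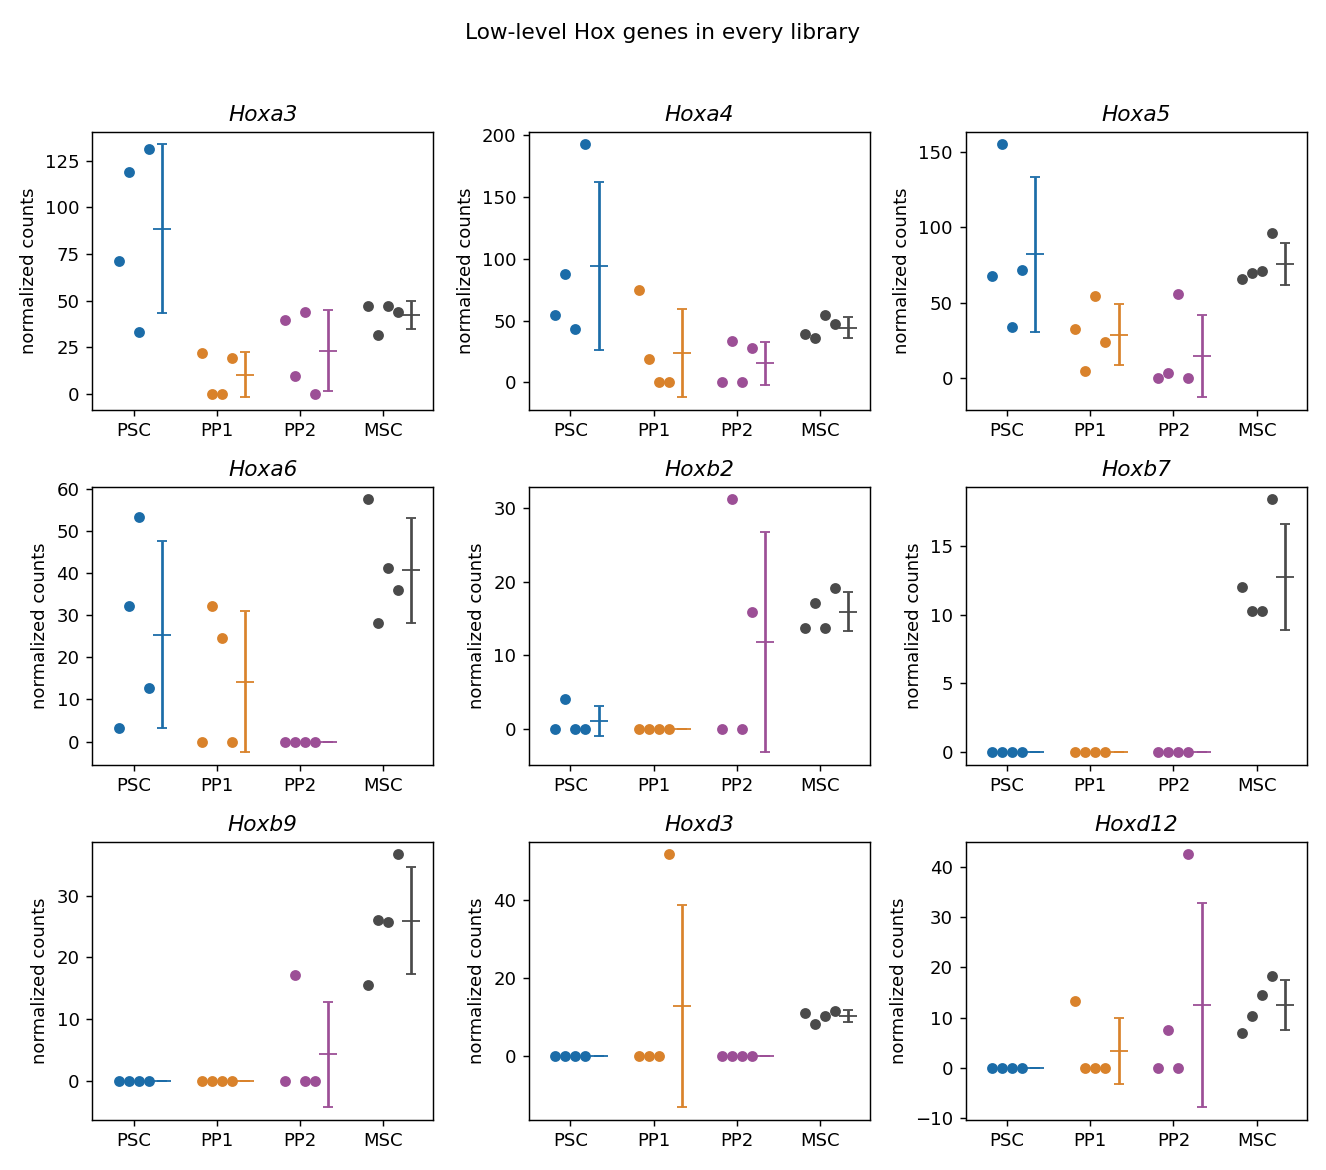
Normalized counts of 9 low Hox genes in every library, with the mean and SD of the 4 libraries of each population beside the points; bars below 0 come from the SD and not from data. Hoxa6 sits at 0 in all PP2 libraries, and Hoxb7 sits at 0 in every library outside MSC, where it is 10.26 to 18.38.

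The remaining tested members did not pass between any pair: Hoxc4, Hoxc5, Hoxc8, Hoxc11, Hoxd10 and Hoxd11. Hoxc4, Hoxc8, Hoxc11, Hoxd10 and Hoxd11 had means over all libraries of 47.58 to 95.45 normalized counts, and Hoxc5 had 21.55. Each of the first 5 had reads in 14 or 15 libraries and Hoxc5 in 13. Hoxc5 and Hoxc10 share 166 exon bases on the same strand. The 10 untested members were Hoxb1, Hoxb3, Hoxb4, Hoxb5, Hoxb6, Hoxb8, Hoxb13, Hoxc12, Hoxc13 and Hoxd1, none with over 25 reads in any library. Among them, Hoxc13 had 5.993 to 13.68 normalized counts in MSC, 0 to 3.017 in PSC, and no read in PP1 or PP2.

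The TALE homeobox genes encode cofactors that bind DNA together with Hox proteins. All 9 listed were tested, and most did not pass the F-test over the 4 groups, which 44.8% of all tested genes passed. Relative to MSC, 0 were higher and 3 lower in PSC (12.1% and 14.2% of all genes). Relative to PP2 these counts were 0 and 3 (17.6% and 15.2%), and relative to PP1 they were 0 and 2 (16.1% and 15.1%). Pknox2 averaged 51.55 normalized counts in PSC and 195.3 in MSC (PSC minus MSC -1.95, adjusted p = 0.00629). Meis3 averaged 55.92 in PSC and 257.3 in PP2 (PSC minus PP2 -1.93, adjusted p = 0.0151). Pbx3 was higher in PP1 than in MSC (adjusted p = 0.0465) but did not pass the F-test (adjusted p = 0.0772).

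Of the chromatin regulators that hold Hox clusters silent or active, 6 of 23 Polycomb genes and 4 of 11 trithorax and H3K27 demethylase genes differed over the 4 groups, against 44.8% of all tested genes. Cbx6, a Polycomb subunit, averaged 1519 normalized counts in PSC against 4128 in PP1, 3341 in PP2 and 2514 in MSC (PSC minus PP1 -1.47, adjusted p = 5.63e-07). The 4 trithorax-list genes were each higher in MSC than in PSC. Kdm6b, an H3K27 demethylase, averaged 2031 in MSC against 649 in PSC, 730.4 in PP2 and 733.2 in PP1 (PSC minus MSC -1.65, adjusted p = 6.24e-07). Kmt2a and Kmt2b, H3K4 methyltransferases that keep Hox genes active, had means of 489.8 and 833.2 in MSC and of 134.7 and 280.3 in PSC (adjusted p = 0.00888 and 0.00857).

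Of 12 genes that act upstream of Hox genes in the embryo, 9 were tested and 5 differed over the 4 groups, against 44.8% of all tested genes. Aldh1a2, which makes retinoic acid, averaged 11.56 ± 19.6 in PSC against 241.6 ± 44.3 in PP1, 644.1 ± 145 in PP2 and 14.5 ± 5.3 in MSC (normalized counts, mean ± SD, n = 4). PP1 and PP2 lay above PSC and MSC in every library (PSC minus PP2 -7.28, adjusted p = 5.01e-06; PP1 minus MSC 4.04, adjusted p = 0.00392). The retinoic acid receptor Rara was lower in PSC (283.8) than in PP1 (679.8), PP2 (731.7) and MSC (904.3), with adjusted p of 0.000417, 0.00018 and 4.18e-05. Rara is not the only such receptor gene in the list, and its level does not stand for theirs. Between PSC and PP2, 1 of the 9 tested was higher and 4 were lower in PSC (17.6% and 15.2% of all genes). Cdx2 and Cdx4, homeobox genes that switch on Hox genes in the tail of the embryo, were at 0 in all 16 libraries; they are named after their values were seen.

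Of 24 genes listed as noncoding RNAs of the clusters or flanking genes, 12 were in the table, 9 were tested and 5 differed over the 4 groups, against 44.8% of all tested genes. Skap2, an adaptor gene just beyond the head end of Hoxa, averaged 760.5 normalized counts in PSC against 246.8 in PP1, 84.33 in PP2 and 432.6 in MSC. It was higher in PSC than in PP2 (log2 difference 3.15, adjusted p = 9.29e-08) and higher in PP1 than in PP2 (1.53, adjusted p = 0.0124). Evx2, a homeobox gene beyond Hoxd13, averaged 42.45 in MSC, 16.37 in PSC and 10.03 in PP2 and had no read in PP1.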

How the data were processed

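RNA of 16 libraries of sorted mouse femur cells was sequenced after RNeasy Plus Micro extraction and TruSeq RNA preparation on a HiSeq4000, per the labels' protocols. Per the submitters' processing notes, the tools were DESeq2 1.6.3, HTSeq 0.6.1, TopHat2 2.0.11, cutadapt and bcl2fastq 2.17, in an order that the notes leave out, with the build mm10. How the counting treated strand, and its annotation, is not given in the sources used here. A single table of signal values was deposited by the authors: gene reads divided by a size factor of each library. All values (100%) came out as whole reads at a tolerance of 1e-06, and these reads served for depth and for alternatives.

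Differences were tested with limma 3.58.1 (R 4.3.3, intensity trend, two-sided) on log2(normalized count + 1) over all 16 libraries, with group as the only term. Genes needed a normalized count of 10 in 4 libraries, and Benjamini-Hochberg adjustment ran over all 13797 genes tested within each of 6 comparisons, with a threshold of 0.05. On this scale the added 1 shrinks the change of genes that are low in every library. Where some libraries of a group have no read, the difference can exceed the ratio of the group means. Hoxa5, with means of 82.29 in PSC and 14.85 in PP2, was 17.9-fold higher in PSC on this scale. Folds against groups with no read use a floor of 3 reads per library. This floor covers counting error only and not the spread between libraries. Levels of different genes are per kilobase of merged exons of GENCODE M21 (GRCm38), which held 21829 of 22559 identifiers and all 38 Hox members. Alternatives changed the pseudocount, the filter, the scaling, the libraries, the replicate block and the tool (edgeR 4.0.16, DESeq2 1.42.0, voom). The fit was tested on simulated data.

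Values in every library are given for members that passed the F-test over the 4 groups and for the leading member of each cluster, and up to 4 genes with the smallest F-test p were named from each other list. The members and lists were chosen with earlier results of these data known. The SDs and SEs given measure the spread between libraries, and the part of counting error in it was not tested. Some genes are not reported here by name, and they stay in the fits, sums and counts.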

Additional observations from a re-analysis of the deposited data

Results flagged for a closer look

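Of 112 groups of 4 libraries of tested members, 13 had 1 library far from the other 3, by a gap of more than 0.829 of the group's range. Chance flags about 1 in 20 groups, and in 4 of the 13 the other 3 libraries had no read.

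Among members with reads in all libraries, Hoxa11 had 890 normalized counts in PSC replicate 3 against 497.1 to 543.1 in the other PSC libraries. Hoxc10 had 278.6 in PP1 replicate 1 against 605.1 to 643.8, and 565.9 in MSC replicate 3 against 443.3 to 453.6. Hoxd8 had 584.3 in PP1 replicate 2 against 194.2 to 225.3, Hoxa7 had 297 in PP1 replicate 4 against 155.9 to 164.7, and Hoxa9 had 422.9 in PSC replicate 1 against 261.3 to 279.6.

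Among low members, Hoxa5 had 55.67 in PP2 replicate 3 against 0 to 3.718, and 96.3 in MSC replicate 4 against 66.08 to 71.05. Hoxc5 had 63.36 in PSC replicate 2 against 11.06 to 18.97. The 4 single libraries with reads were Hoxb2 in PSC replicate 2 (4.023), Hoxb9 in PP2 replicate 2 (17.1), Hoxd3 in PP1 replicate 4 (51.83) and Hoxd12 in PP1 replicate 1 (13.33).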

How the results depend on the processing

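No direction was reversed for any called Hox member. Over all single-gene results 1544 stayed on the same side of the threshold, 113 calls were lost and 15 were gained. The 1544 include results that were not called in the main fit and stayed so. The share of calls that were lost is therefore higher than 113 beside 1544 would give. The counts of called members moved under several settings. With no filter they were 11 for PSC vs MSC, 8 for PP1 vs MSC and 10 for PP2 vs MSC. With a minimum of 50 in 4 libraries they were 2, 1 and 1, and 4 over the 4 groups. With edgeR, whether scaled by RLE or TMM, they were 2 for PSC vs PP1, 4 for PSC vs MSC, 2 for PP2 vs MSC and 6 over the 4 groups. DESeq2 gave 3 for PSC vs MSC, 2 for PP1 vs PP2, 2 for PP1 vs MSC, 1 for PP2 vs MSC and 4 over the 4 groups. Fitting only the 8 libraries compared gave 3 for PSC vs PP2, and leaving out PP2 replicates 1 and 3 gave 3 for PP2 vs MSC. With only genes that had a read in every library, an alternative chosen after seeing the data, the counts were 3 for PSC vs PP2, 2 for PSC vs MSC, 2 for PP1 vs MSC, 0 for PP2 vs MSC and 3 over the 4 groups, since low members drop out. The cause of the other shifts was not tested.

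Leaving out 1 library at a time gave 2 to 5 for PSC vs PP1, 3 to 7 for PSC vs PP2, 1 to 7 for PSC vs MSC, 0 to 1 for PP1 vs PP2, 3 to 7 for PP1 vs MSC, 3 to 6 for PP2 vs MSC and 5 to 14 over the 4 groups. The highest of these came without PP1 replicate 1. Members that were tested through their MSC libraries can drop below the filter when an MSC library is left out.

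Same-numbered libraries of a pair of groups were correlated weakly: of 24 correlations, 2 were above 0.1 (-0.018 to 0.149). Still, 20 of the 24 were the best for their number, so a weak pairing by number may be present. The main fit does not use it. With the replicate block the count for PP1 vs PP2 was 1 (Hoxa10), and 227 of all genes were called there, against 115 in the main fit. The other counts stayed within 1.5 times, and Hoxd13 was then called between PP1 and MSC. Hoxa10 had the highest level by each of 3 gene lengths. For members with no read in a group, the floor of 3 reads per library limits what can be said, and the part of read depth in their zeros was not tested.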
